A study of Mus musculus with 8 samples.

Results

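The thioredoxin and glutaredoxin system was examined through the 9 genes that code for its core proteins, each found by its gene name among the 32390 rows of the count table. Each name had 1 row, and all 9 rows passed the filter on low counts. The cytosolic members, 5 in number, were *Txn*, *Txnrd1*, *Txnip*, *Glrx* and *Glrx3*, and the mitochondrial members, 4 in number, were *Txn2*, *Txnrd2*, *Glrx2* and *Glrx5*. Gastrocnemius muscle came from mice of 2 genotypes, aged 21 months by the sample labels (the study's text also gives a slightly younger age), that both carry the floxed *Nox4* allele, namely 4 *Nox4* fl/fl controls and 4 *Mck*-Cre;*Nox4* fl/fl mice, here called NOX4-deficient. NOX4 is an NADPH oxidase that produces hydrogen peroxide. The *Mck* promoter drives Cre in muscle fibers, so that blood vessels, fat, immune cells and connective tissue within the muscle keep the gene, and the controls carry no Cre. RNA was poly(A)-selected and sequenced from unstranded libraries, with no separate batches named for the 8 samples. In whole muscle, fewer cells of a type and less RNA per cell cannot be told apart.

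Thioredoxins reduce disulfide bonds in other proteins with a pair of active-site cysteines, and thioredoxin reductases, which are selenoproteins, return them to the reduced state with electrons from NADPH. TXNIP binds reduced thioredoxin and blocks it, and is also an alpha-arrestin that restrains glucose uptake. Glutaredoxins draw instead on glutathione: GLRX and GLRX2 remove glutathione from protein cysteines, whereas GLRX3 and GLRX5 carry iron-sulfur clusters. Cytosol and mitochondria hold separate thioredoxins and reductases.

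The 8 libraries held 16350548 to 19804661 counts on genes, and 12725 rows had enough counts to be tested. Counts on *Nox4* itself were 85, 48, 35 and 70 in the controls (replicates 1 to 4) and 29, 43, 42 and 37 in the NOX4-deficient libraries. These groups overlapped, since 3 of 4 NOX4-deficient libraries lay above the lowest control. The log2 fold change of *Nox4* was -0.65 ± 0.29 (SE; edgeR adjusted p = 0.207), so its level did not check the genotype labels. None of the 12 myofiber markers, *Ckm* and *Acta1* among them, was called in either direction, and their summed level was 145771 to 176234 CPM (counts divided by the TMM-scaled library size) in controls and 157304 to 179658 CPM in the NOX4-deficient group.

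Fold changes are NOX4-deficient over control, and a call means an adjusted p under 0.05 together with an absolute log2 fold change over 0.5. By this rule *Txnrd1* fell, *Txnip* and *Glrx* rose, and the other 6 members were not called. Thus 1 of 9 members was called lower, where 3.48% of all rows tested were, and 2 of 9 were called higher, where 2.68% of all rows were. The groups did not overlap for 1 member with lower values (8.97% of all rows) and for 3 members with higher values (7.2% of all rows), the third being *Glrx2*. All 3 called members were cytosolic.

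**Figure D1:**
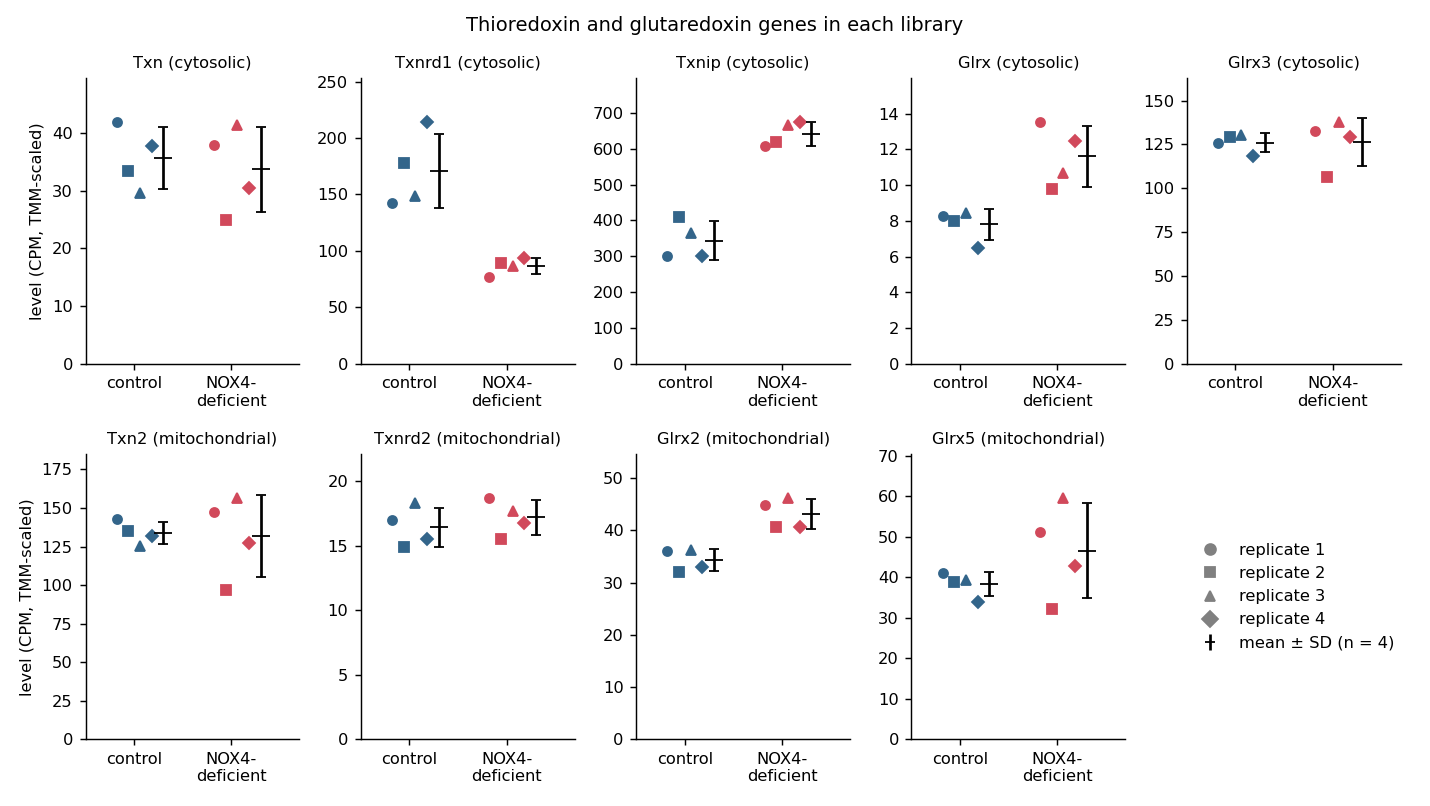
Level of each of the 9 members in CPM (linear axes from 0), 1 point per library, with a bar for the mean of 4 libraries and an error bar for the SD. The points of the genotypes are separate for Txnrd1 (lower in NOX4-deficient muscle) and for Txnip, Glrx and Glrx2 (higher).

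*Txnrd1*, the cytosolic thioredoxin reductase, had the largest change among the members. Its level was 143, 178, 149 and 214 CPM in control replicates 1 to 4 and 76.5, 89.5, 86.1 and 93.8 CPM in NOX4-deficient replicates 1 to 4. Every NOX4-deficient library lay below every control library, and the controls were the more spread of the groups. The mean of 4 controls was 171 ± 32.7 CPM (SD), and that of 4 NOX4-deficient libraries was 86.5 ± 7.33 CPM. The log2 fold change was -0.98 ± 0.13 (SE; edgeR adjusted p = 0.00132), a level of 0.506 times that of controls. *Txnrd1* was 66th of all rows tested when ranked by p.

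*Txnrd2*, the mitochondrial reductase, had 17.0, 14.9, 18.3 and 15.5 CPM in control and 18.7, 15.5, 17.7 and 16.8 CPM in NOX4-deficient replicates 1 to 4, in the same order of libraries. The groups overlapped over nearly their whole range. Its log2 fold change was 0.07 ± 0.12 (edgeR adjusted p = 0.783), with a 95% interval from -0.19 to 0.32.

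The promoter of *Txnrd1* is shown because this gene is known as a target of NFE2L2, the transcription factor that binds antioxidant response elements. The window holds 250 bases before and 50 after the start site in RefSeq (GRCm38.p6, chr10:82858956-82859255, plus strand) and is 1 of 3 listed for the gene. Capitals mark a match to the core motif TGACNNNGC, found on the reverse strand and beginning 92 bases before the start.
Txnrd1: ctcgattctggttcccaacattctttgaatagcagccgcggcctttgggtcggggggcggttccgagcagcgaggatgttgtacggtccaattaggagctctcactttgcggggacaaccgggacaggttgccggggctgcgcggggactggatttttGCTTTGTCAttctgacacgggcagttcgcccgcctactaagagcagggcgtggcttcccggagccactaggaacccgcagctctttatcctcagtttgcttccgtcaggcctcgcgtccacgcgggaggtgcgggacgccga
Both strands of every window were searched, and 12.4% of 32851 windows hold this motif. The other *Txnrd1* windows had no match to it, and no window of another member did.

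*Txnip*, the thioredoxin inhibitor, was the most abundant member per kb of the longest transcript and rose. It had 299.7, 410, 364 and 299.7 CPM in control replicates 1 to 4 and 609, 618, 665 and 675 CPM in NOX4-deficient replicates 1 to 4. The lowest NOX4-deficient library lay well above the highest control. The mean rose from 343 ± 53.9 to 642 ± 33.2 CPM, a log2 fold change of 0.90 ± 0.12 (edgeR adjusted p = 0.00114) or 1.87-fold. *Txnip* was 61st of all rows by p. Its exons share 606 bases (19.4%) with *Gm15441* on the opposite strand, which had mean levels of 0.707 and 0.653 CPM in control and NOX4-deficient muscle, far below those of *Txnip*.

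The *Txnip* promoter is shown because glucose-sensing Mondo factors are known to act on paired E-box-like elements in it. Capitals mark both copies of CACGAG, which begin 85 and 74 bases before the start with 5 bases between them (RefSeq, GRCm38.p6, chr3:96557707-96558006, plus strand).
Txnip: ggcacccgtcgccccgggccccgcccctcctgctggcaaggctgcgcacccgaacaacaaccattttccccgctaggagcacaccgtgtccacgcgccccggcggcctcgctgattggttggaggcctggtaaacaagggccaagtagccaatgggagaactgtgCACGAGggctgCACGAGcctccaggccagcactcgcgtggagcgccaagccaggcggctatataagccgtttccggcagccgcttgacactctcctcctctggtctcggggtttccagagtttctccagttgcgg
Of the 32851 windows, 6.47% hold CACGAG and 7.15% hold its palindromic relative CACGTG on either strand. A pair of such elements on a single strand with the same 5-base spacing was found in 4 windows (0.0122%), those of *Txnip*, *Tdrd9*, *Gm1140* and *Gm14692*, and the last 3 genes had too few counts to be tested. Among the other members, CACGAG was found in the *Glrx5* window and CACGTG in a *Glrx2* window.

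The thioredoxins themselves were not called. *Txn*, which codes for the cytosolic thioredoxin, had 41.9, 33.3, 29.6 and 37.6 CPM in control and 37.9, 24.9, 41.4 and 30.4 CPM in NOX4-deficient libraries, and its log2 fold change was -0.08 ± 0.16 (edgeR adjusted p = 0.813; 95% interval -0.43 to 0.27). *Txn2*, which codes for the mitochondrial thioredoxin, had 143.0, 135, 126 and 132 CPM in control and 148, 96.5, 157 and 127 CPM in NOX4-deficient libraries. Its log2 fold change was -0.02 ± 0.14 (edgeR adjusted p = 0.956; 95% interval -0.32 to 0.28). For both genes the NOX4-deficient libraries reached above and below the controls or nearly so, and these intervals leave room for changes of about 0.3 to 0.4 on the log2 scale.

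**Figure D2:**
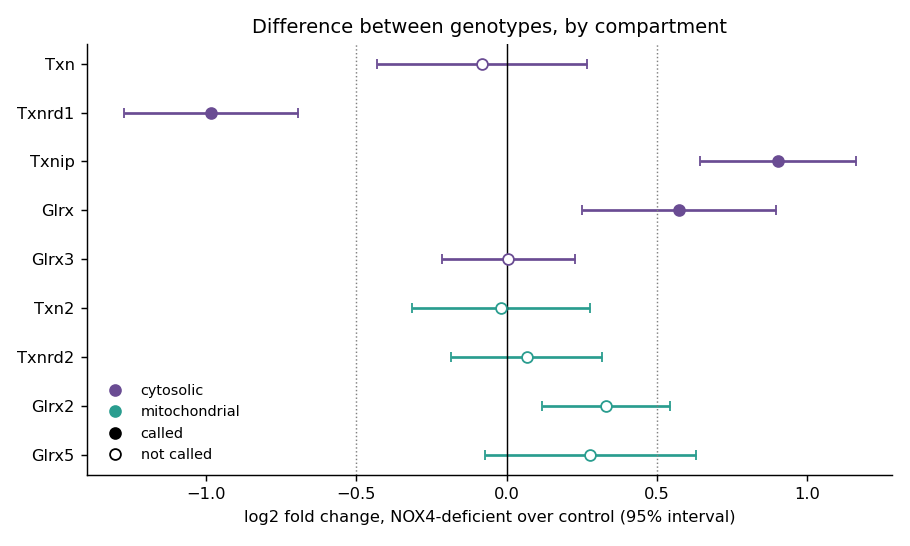
Log2 fold change (NOX4-deficient over control) of the 9 members from the edgeR fit, with 95% confidence intervals, members ordered by role and marked by compartment. The interval of Txnrd1 lies below 0, those of Txnip, Glrx and Glrx2 lie above 0, and the other 5 include 0.

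The dithiol glutaredoxins had higher values in NOX4-deficient muscle. *Glrx*, which codes for the cytosolic enzyme, had 8.27, 7.98, 8.45 and 6.50 CPM in control and 13.5, 9.76, 10.7 and 12.5 CPM in NOX4-deficient replicates 1 to 4, from 125 to 225 counts per library. No NOX4-deficient library fell within the control range. The log2 fold change was 0.57 ± 0.15 (SE; edgeR adjusted p = 0.0355), and it passed the threshold in only 1 of 8 fits that each left out 1 library, the fit without NOX4-deficient replicate 2, with adjusted p from 0.0304 to 0.0978.

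*Glrx2*, the mitochondrial counterpart, had 36.1, 32.1, 36.2 and 33.0 CPM in control and 44.9, 40.7, 46.3 and 40.7 CPM in NOX4-deficient libraries. The groups did not overlap, but the change was small. Its log2 fold change was 0.33 ± 0.10 (edgeR adjusted p = 0.0592; 95% interval 0.12 to 0.54), under the minimum for a call.

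The *Glrx* promoter is shown because the gene rose and its window holds a TGACTCA motif, the letters that AP-1 factors are known to bind. Capitals mark the match, which begins 98 bases before the start (RefSeq, GRCm38.p6, chr13:75839635-75839934, plus strand).
Glrx: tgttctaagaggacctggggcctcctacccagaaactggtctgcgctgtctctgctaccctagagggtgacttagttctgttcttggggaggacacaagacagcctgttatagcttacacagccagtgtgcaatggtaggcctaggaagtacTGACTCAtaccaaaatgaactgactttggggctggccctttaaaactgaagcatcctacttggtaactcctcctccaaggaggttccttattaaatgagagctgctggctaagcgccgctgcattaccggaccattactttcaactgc
The motif is in 5.20% of the 32851 windows on either strand, and no other member has it. Where TGACTCA is followed by GC it also matches TGACNNNGC, which is not the case here. A second *Glrx* window is offset from this one by a single base and holds the same match.

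The monothiol glutaredoxins were not called. *Glrx3*, a cytosolic iron-sulfur cluster carrier, had 126, 129, 130.2 and 119 CPM in control and 133, 107, 138 and 129 CPM in NOX4-deficient libraries, with a log2 fold change of 0.01 ± 0.10 (edgeR adjusted p = 0.985; 95% interval -0.22 to 0.23). *Glrx5*, which passes iron-sulfur clusters on in mitochondria, had 41.2, 38.9, 39.4 and 34.1 CPM in control and 51.3, 32.3, 59.7 and 42.9 CPM in NOX4-deficient libraries. Here 3 NOX4-deficient libraries lay above every control and replicate 2 lay below every control. Its log2 fold change was 0.28 ± 0.16 (edgeR adjusted p = 0.332; 95% interval -0.07 to 0.63).

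Set side by side, the 5 cytosolic members had log2 fold changes from -0.98 to 0.90 with a median size of 0.57, and the 4 mitochondrial members from -0.02 to 0.33 with a median size of 0.17. Over all rows tested the median size was 0.20. The signed medians were 0.01 for the cytosolic and 0.17 for the mitochondrial members, beside 0.01 for all rows. For 3 pairs of paralogs, the log2 ratio of the cytosolic to the mitochondrial paralog was taken within each library, where library scaling cancels. *Txnip*, *Glrx3* and *Glrx5* entered no ratio, so the compartments as a whole were not tested. Each ratio was compared between genotypes by an exact two-sided permutation test, whose smallest p is 0.0286 for 4 against 4, with adjustment over the 3 ratios.

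The *Txnrd1* to *Txnrd2* log2 ratio was 3.07, 3.58, 3.02 and 3.79 in control and 2.03, 2.53, 2.28 and 2.48 in NOX4-deficient replicates 1 to 4. The groups did not overlap, and the ratio of counts was 0.488 times that of controls (difference -1.04 on the log2 scale; exact permutation p = 0.0286, adjusted p = 0.0857). This p is the smallest the design allows, and the adjusted value did not pass 0.05. A single ratio at that p cannot have an adjusted p below 0.0857 here, so this outcome was fixed by the design. The *Glrx* to *Glrx2* ratio differed by 0.24 (exact permutation p = 0.171, adjusted p = 0.257) and the *Txn* to *Txn2* ratio by -0.05 (exact permutation p = 0.514, adjusted p = 0.514), and in both the libraries overlapped.

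**Figure D3:**
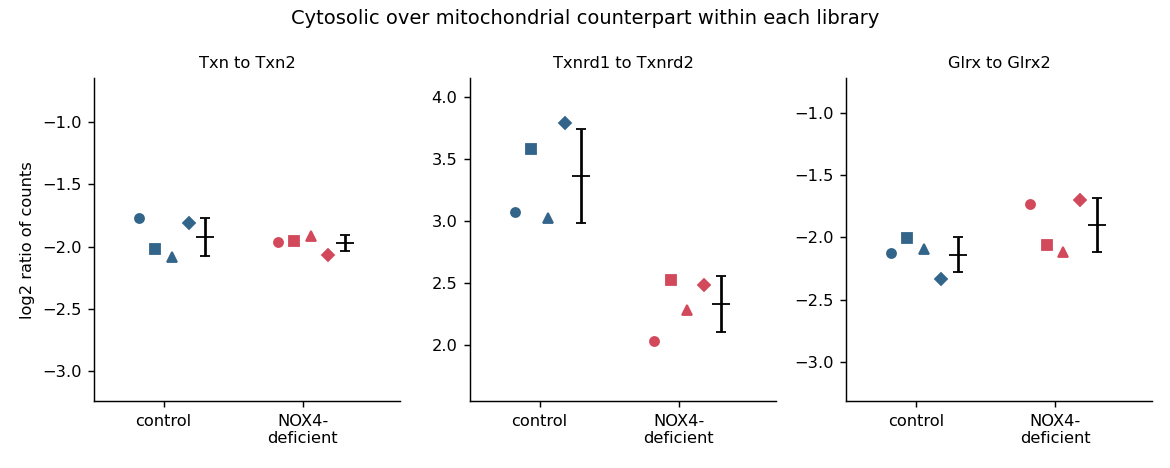
Log2 ratio of the counts of the cytosolic to the mitochondrial paralog within each library, 1 point per library, with the mean and SD of 4 libraries. The Txnrd1 to Txnrd2 points are separate, at 3.02 to 3.79 in control and 2.03 to 2.53 in NOX4-deficient muscle, and the points of the other ratios overlap.

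Between genes, levels were compared per kb of the longest protein-coding transcript. In control muscle the order of mean levels was *Txnip* (121 CPM per kb), *Txn2* (65.3), *Txnrd1* (47.2), *Glrx3* (36.6), *Txn* (33.9), *Glrx5* (13.1), *Glrx2* (9.76), *Glrx* (5.80) and *Txnrd2* (5.71 CPM per kb). Among these neighbors, the libraries of *Glrx3* and *Txn* overlapped, as did those of *Glrx* and *Txnrd2*. In NOX4-deficient muscle *Txnip* was at 227 CPM per kb, and *Txnrd1*, at 23.9 CPM per kb, came 5th in place of 3rd, behind *Glrx3* (36.8) and *Txn* (32.0). There *Glrx3* and *Txn*, *Txn* and *Txnrd1*, and *Glrx5* and *Glrx2* overlapped. With coding length in place of transcript length, *Txnrd1* came 5th in control muscle, so its place depends on the length used. *Txnip* and *Txn2* were then closer, with control means of 288 and 269 CPM per kb.

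Several members also varied together within a genotype. In the NOX4-deficient group, replicates 1 and 3 lay above replicates 2 and 4 for 6 of 9 members (*Txn*, *Txn2*, *Txnrd2*, *Glrx2*, *Glrx3* and *Glrx5*), an order held by 26.1% of all rows tested. None of these 6 genes was called. In the control group the same order was held by 4 of 9 members (*Txnrd2*, *Glrx*, *Glrx2* and *Glrx5*) and by 17.1% of all rows. The spread did not move one way over the members: the coefficient of variation was 5.42% in control and 20.2% in NOX4-deficient muscle for *Txn2*, but 19.1% and 8.48% for *Txnrd1* and 15.7% and 5.17% for *Txnip*. The 2nd principal component of all rows, with 19.0% of the variance, separated the same NOX4-deficient libraries, with scores of 18.5 and 17.0 for replicates 1 and 3 and -26.3 and -25.0 for replicates 2 and 4. The labels name nothing that would set these libraries apart.

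**Figure D4:**
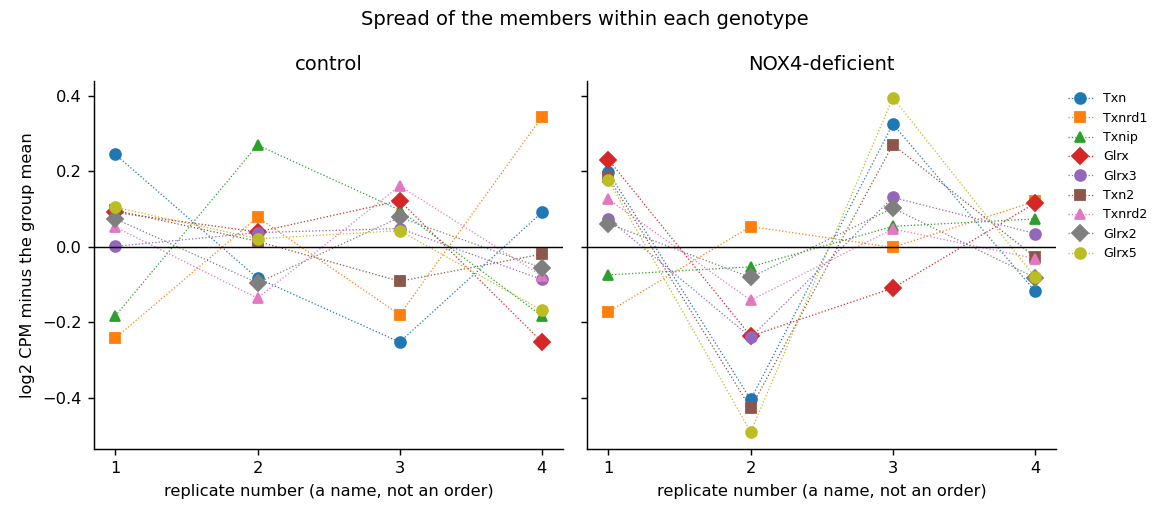
Deviation of each member from the mean of its genotype (log2 CPM) in each library, with lines that join the points of 1 gene and carry no order of libraries. In NOX4-deficient muscle, 6 members have replicates 1 and 3 above replicates 2 and 4.

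The genes around the system were described from lists, by the number called and the median log2 fold change, beside a median of 0.01 over all rows. Of 19 other proteins with a thioredoxin fold that were tested, 0 were called lower and 0 higher (median -0.04). However, 3 had an edgeR adjusted p under 0.05 and missed only the fold minimum. They were *Txndc9* (log2 fold change -0.39), *Txnl1* (-0.43) and *Tmx2* (0.41), so that 2 were called lower and 1 higher with no fold minimum. Without control replicate 2, 1 gene of this list was called lower. Of 15 proteins that thioredoxin reduces or binds, such as peroxiredoxins, methionine sulfoxide reductases and ribonucleotide reductase, 0 were called (median 0.09). The 10 tested genes of selenoprotein synthesis, on which the thioredoxin reductases depend, also had 0 calls (median 0.05), and so did 26 genes of iron-sulfur cluster assembly, the process that GLRX3 and GLRX5 serve (median -0.07). Without NOX4-deficient replicate 2, 1 gene of selenoprotein synthesis was called higher.

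Among the alpha-arrestins and Mondo factors, relatives and regulators of *Txnip*, 1 of 7 tested genes was called higher and 0 lower (median -0.01). *Arrdc4*, an alpha-arrestin known to respond to the same glucose-sensing factors, rose from 9.22 ± 1.07 to 13.4 ± 1.98 CPM (log2 fold change 0.54 ± 0.14; edgeR adjusted p = 0.0395). This call was lost in 6 of 8 fits that left out 1 library, and it remained in those without control replicate 4 or NOX4-deficient replicate 4. Without NOX4-deficient replicate 2, 1 gene of this list was called lower.

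In a list of glutathione metabolism, on which glutaredoxins draw, 2 of 7 tested genes were called lower and 0 higher (median -0.56). The 7 genes include *Chac1* and *Chac2*, whose products degrade glutathione, and *Ggt7*, and none of these was called. *Gclm* and *Gclc*, the modifier and catalytic subunits of glutamate-cysteine ligase, had log2 fold changes of -1.30 and -0.63 (edgeR adjusted p = 5.96e-04 and 0.0161). Among NFE2L2 and its target genes outside the 9 members, 7 of 17 were called lower and 0 higher (median -0.47). *Srxn1*, which codes for the sulfiredoxin that repairs overoxidized peroxiredoxins, fell by 2.53 on the log2 scale (edgeR adjusted p = 1.66e-05), and *Osgin1* fell by 1.33 (edgeR adjusted p = 0.00168). *Gclc*, *Gclm* and *Gsr* were tested in both of these lists, which were chosen with these results known and are no independent evidence of a direction.

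**Figure D5:**
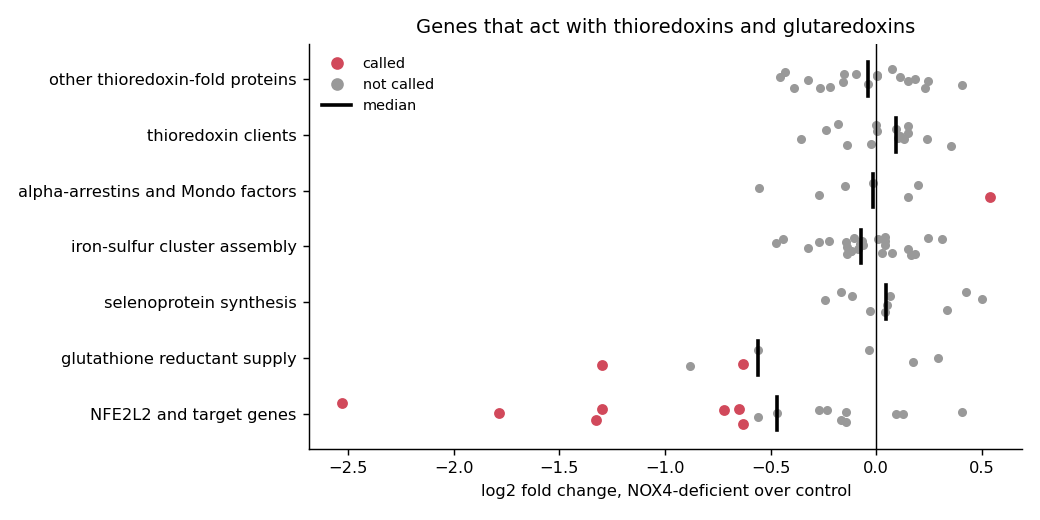
Log2 fold changes (NOX4-deficient over control) of the tested genes in each surrounding list, 1 point per gene, with a bar for the list's median. Called genes stand out below 0 in the glutathione and NFE2L2 lists (2 and 7 genes) and above 0 for Arrdc4.

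Markers of other cell types in the muscle were counted and summed in the same way. Of 7 blood markers, 5 were in the table and 3 were tested, and 2 were called higher, the globins *Hba-a1* (log2 fold change 1.24; edgeR adjusted p = 0.00978) and *Hbb-bs* (1.00; edgeR adjusted p = 0.0153). The summed blood markers were 47.5 to 52.7 CPM in control and 72.3 to 159 CPM in NOX4-deficient libraries, and so differed without overlap, like the levels of *Txnrd1*, *Txnip*, *Glrx* and *Glrx2*. The part of blood in the differences of these 4 members was not tested. In NOX4-deficient muscle the summed blood markers were 159 and 118 CPM in replicates 1 and 3 and 79.9 and 72.3 CPM in replicates 2 and 4. The 6 members that varied together had the same order there. The sums of immune cell and adipocyte markers had it too, and those of the other marker lists did not. What this order reflects was not tested. *Slc4a1*, a defining marker of red cells, had too few counts to be tested.

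The summed satellite cell markers (3 of 4 tested, 0 called) also did not overlap, at 5.71 to 6.58 CPM in controls against 7.33 to 10.1 CPM. Of 9 tested immune cell markers 1 was called lower, the macrophage receptor *Cd163* (log2 fold change -1.29, edgeR adjusted p = 0.0238). In this list 8 of 9 had log2 fold changes below 0 (median -0.47), and the sums were 39.4 to 96.9 CPM and 23.6 to 47.9 CPM. Of 8 endothelial markers 1 was called higher, *Vwf* (0.74, edgeR adjusted p = 0.0129), with sums of 289 to 356 CPM and 319 to 359 CPM. Here 4 markers were below 0 and 4 above (median 0.05). No marker of the slow-fiber (9), adipocyte (8), fibroblast and tendon (9) or Schwann cell (5) lists was called. Even so, all 9 slow-fiber markers (median log2 fold change 0.62) and all 5 Schwann cell markers (median 0.24) had log2 fold changes above 0. So did 7 of 9 fibroblast and tendon markers (median 0.61) and 6 of 8 adipocyte markers (median 0.34). The sums in control and NOX4-deficient muscle were 424 to 731 CPM and 440 to 715 CPM for fibroblast and tendon markers. For slow-fiber markers they were 333 to 725 CPM and 429 to 1280 CPM. Schwann cell sums were 73.9 to 100 CPM and 75.8 to 180 CPM, and adipocyte sums 164 to 303 CPM and 161 to 212 CPM. For Schwann cell markers, 1 was called higher without NOX4-deficient replicate 4, and for slow-fiber markers, 1 without control replicate 2. The *Cd163* call was lost without control replicate 2 and without NOX4-deficient replicate 1 or 4.

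The rows whose log2 CPM followed the called members most closely over the 8 libraries were found by Pearson correlation, as a description, since all points share the genotype difference. For *Txnrd1* they were *Yy1* (r = 0.991), *Nfil3* (0.988), *Rad52* (0.986), *Inpp4a* (0.986) and *Hspa4* (0.986), and the 99th percentile of all rows was 0.940. *Txnip* was followed most closely by *Itgb6* (0.990), *Ergic1* (0.987), *Ldb2* (0.983), *Tfrc* (0.976) and *Sh3rf2* (0.976), with a 99th percentile of 0.920. For *Glrx* the rows were *Becn1* (0.988), *6330410L21Rik* (0.975), *Tmx2* (0.973), *Gtf3c5* (0.968) and *Uckl1os* (0.966), with a 99th percentile of 0.902.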

How the data were processed

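Gastrocnemius RNA of 4 control and 4 NOX4-deficient mice was sequenced after poly(A) selection as unstranded paired-end libraries. The values are raw read counts per gene that the authors deposited in 1 table, not normalized; the submitters' processing notes name STAR and GRCm39, and the annotation release and counter settings are not given in the sources used here. All 8 columns matched a sample by name, leaving 0 unmatched. Nothing says which mice shared a litter, so p-values measure the spread between these 8 samples.

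Counts were scaled by TMM and filtered with filterByExpr, and 12725 of 32390 rows (412 repeat a name) were tested with a robust glmQLFit and glmQLFTest in edgeR 4.0.16 (R 4.3.3, limma 3.58.1), with genotype as the only term and Benjamini-Hochberg adjustment over all rows. The common biological coefficient of variation was 0.174. Ratios used counts plus 0.5 and scipy 1.17.1. The study used a Python DESeq2, which is an alternative here.

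Named genes were the 9 members, up to 3 called genes of smallest p in each list, and the 5 rows most correlated with each called member (log2 CPM, prior count 2). Genes outside this rule, such as *Ckm*, *Gsr*, *Chac1*, *Slc4a1* and *Txndc9*, were named to describe a list or its limits. Members and lists were chosen with earlier results of these data known. *Fdx1l*, *Sars*, *Hba-a2* and *Hbb-bt* had no row under these names, and *Txndc8* had no counts. Promoters came from RefSeq (GRCm38.p6), in which all 9 members matched, *Txn* under *Txn1*; transcript lengths and exon overlaps came from GENCODE on GRCm38, not the build of the counts. Alternatives were DESeq2 size factors, library size only, other filters and thresholds, a fit that was not robust, a replicate block, an odd and even term, each library left out, DESeq2 1.42.0 and pydeseq2 0.5.4.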

Additional observations from a re-analysis of the deposited data

Results flagged for a closer look

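In 2 of 44 groups of 4 libraries examined, 1 library stood far from the others, where about 1 in 20 groups, or 2.2, would do so by chance. The summed myofiber markers were 176234 CPM in control replicate 3 and 145771 to 146392 CPM in the other controls, so that the gap was 0.980 of the range. The summed adipocyte markers were 303 CPM in control replicate 1 and 164 to 183 CPM in the other controls, a gap of 0.867 of the range. Neither group was one of the 9 members.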

How the results depend on the processing

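*Txnrd1* (log2 fold change -1.06 to -0.86) and *Txnip* (0.84 to 1.00) kept their direction and their call under all 19 alternatives. *Glrx* kept its direction (0.49 to 0.65) and lost its call in 8 of 19, which were 7 of the 8 fits without 1 library and the threshold of adjusted p under 0.01. Members called higher numbered 1 at that threshold, and 1 to 2 over the fits without 1 library. With the replicate block 1 member was called lower and 2 higher, as without it. Same-numbered libraries of the genotypes correlated at 0.223, 0.147, 0.041 and 0.041, and differently numbered ones at -0.215 to 0.188. These values do not settle whether the numbers pair the samples. Signs turned only for members near 0, none of them called: *Txn* ranged from -0.18 to 0.039 and *Txn2* from -0.10 to 0.10 over the fits without 1 library, and *Txn2* was 8.56e-04 with at least 10 counts in every sample. *Glrx3* ranged from -0.027 to 0.079 over those fits, was -8.51e-05 with no filter and was -4.28e-04 with the replicate block. *Glrx2* passed an adjusted p of 0.05 in some fits, with the replicate block (0.0451) and DESeq2 (0.019) among them, but never the fold minimum. *Arrdc4* also lost its call with library size only (adjusted p = 0.0526) and with the replicate block (0.0549), under which the glutathione list had 4 genes lower in place of 2, the fibroblast and tendon markers 3 higher in place of 0 and the immune cell markers 2 lower in place of 1. DESeq2 called 1 Schwann cell marker and 1 fibroblast and tendon marker higher, and pydeseq2 called 1 Schwann cell marker higher, in place of 0. Over all rows, calls lower numbered 295 without control replicate 4 in place of 443, and calls higher 227 without control replicate 2 and 204 without control replicate 4 in place of 341. Without 1 library the smallest exact permutation p for a ratio is 0.0571. Whether depth or the spread between mice limits the members that were not called was not tested.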

Other observations

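Within each library, the counts of *Txnip* were 7.15 to 12.3 times those of *Txn*, the thioredoxin it binds, in control muscle and 16.0 to 24.8 times in NOX4-deficient muscle. These ratios of counts are not corrected for transcript length, were chosen after the values were seen and were not tested.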
